A study of Mus musculus with 2 samples.

Results

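The expression of 10 neutrophil granule and maturity genes was examined in single-cell RNA sequencing libraries of postischemic mouse kidneys. The genes were taken as a fixed list of symbols, S100a8, S100a9, Retnlg, Ngp, Camp, Ltf, Mmp8, Mmp9, Elane and Cebpe, and all 10 were found among the 32285 genes of the deposited tables. The control group was 1 kidney library from a saline-treated mouse, and the JPI-289 group was 1 library from a mouse given the PARP inhibitor JPI-289 at 100 mg/kg. Both were male C57BL/6 mice aged 9 weeks that had undergone bilateral renal ischemia-reperfusion injury, with the injection into the peritoneal cavity just before reperfusion, and both kidneys were taken 24 h later. There was no sham kidney and no second animal in either group, so no difference between the libraries could be tested, and the intervals below are 95% intervals for counting error alone.

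Neutrophils store antimicrobial proteins in granules that are filled in sequence while the cell matures in the bone marrow. Azurophil granules come first, at the promyelocyte stage (Elane), followed by specific granules at the myelocyte and metamyelocyte stages (Ngp, Camp, Ltf). Gelatinase granules (Mmp9) come after these. The mRNAs of the early stages are largely lost before the cell enters the blood, whereas those of S100a8, S100a9 and Retnlg remain abundant in circulating neutrophils.

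After filtering, 3750 control and 5045 JPI-289 cells remained, with medians of 2056.5 and 1866 UMIs per cell, where a UMI marks 1 captured mRNA molecule. Neutrophil-like cells were identified by 14 other markers, and neither the 10 genes nor other granule genes were used for clustering or naming. All 14 markers were detected in at least 5% of these cells in both libraries, and all 7 T or NK cell markers were at 0. Of 10 proximal tubule markers, 7 (control) and 4 (JPI-289) were also detected in at least 5% of these cells, as were 3 of 7 monocyte markers in each library. There were 196 neutrophil-like cells in the control library, 5.23% of cells (4.54 to 5.99), and 653 in the JPI-289 library, 12.9% (12.0 to 13.9). Their median depth was comparable between the libraries, at 1973 and 2034 UMIs. The libraries shared 23 cell barcodes, and none of these was neutrophil-like in both libraries.

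S100a8 and S100a9 encode the subunits of calprotectin, the most abundant protein of the neutrophil cytosol. In neutrophil-like cells, S100a8 was at 32296 UMIs per 1000000 UMIs of these cells (CPM) in the control library (14048 UMIs) and at 36506 CPM after JPI-289 (58802 UMIs). Ratios are given as log2 of the JPI-289 level over the control level, which was 0.18 for S100a8 (0.15 to 0.20). S100a9 was at 47910 CPM in the control and 48588 with JPI-289, with a log2 ratio of 0.020 (-0.0018 to 0.042). Nearly every neutrophil-like cell carried both transcripts. The median cell held 45.5 S100a8 UMIs in the control and 51 with JPI-289, and the highest cells held 449 and 730. After each cell was thinned to 1000 UMIs, S100a8 was found in 98.3% of the 177 control cells and 99.1% of the 581 JPI-289 cells, and S100a9 in 98.9% and 98.6%.

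Retnlg, which encodes a resistin-like secreted protein of myeloid cells, was lower in the JPI-289 library. It was at 38464 CPM in control neutrophil-like cells and 28061 in JPI-289 cells, a log2 ratio of -0.45 (-0.48 to -0.43). Retnlg was nevertheless detected in a larger share of the JPI-289 cells, 93.6% (91.3 to 95.5) against 87.6% (81.8 to 92.0) after thinning, though these intervals overlapped. Positive cells held fewer Retnlg UMIs in that library, on average 26.5 of 1000 against 37.0 in the control.

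**Figure D1:**
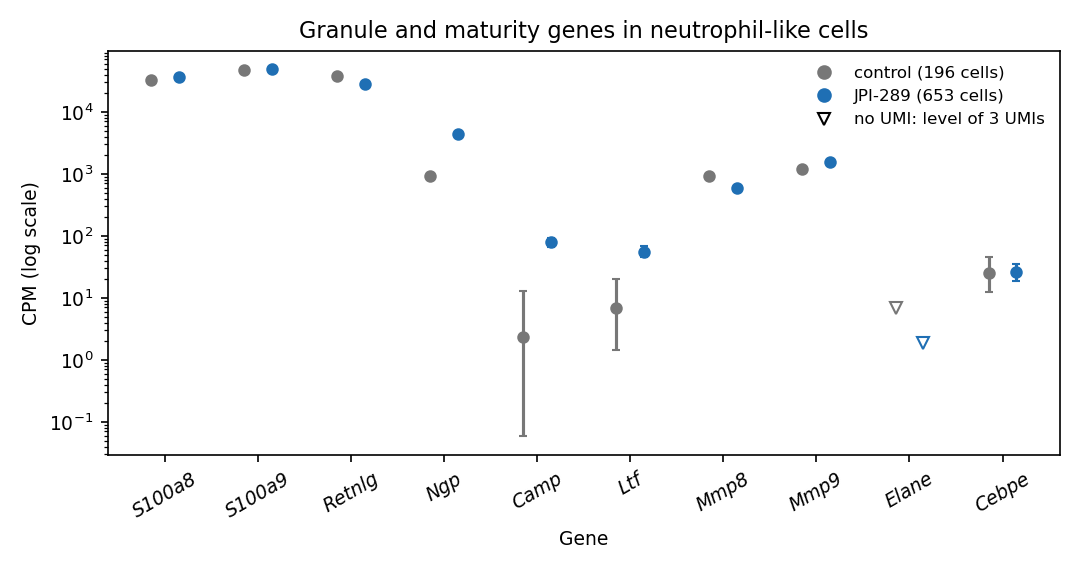
Level of each of the 10 genes in neutrophil-like cells, in CPM on a log scale, for the control (grey, 196 cells) and the JPI-289 library (blue, 653 cells). Bars are 95% Poisson intervals of the count and open triangles mark genes with no UMI at the level of 3 UMIs. Ngp, Camp and Ltf stand apart between the libraries, while S100a8, S100a9 and Cebpe are close.

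The specific granule genes Ngp, Camp and Ltf were more than 2-fold higher in the JPI-289 library. Ngp encodes a cathelicidin-related granule protein of neutrophil precursors. It was at 938 CPM in the control library (408 UMIs, 849 to 1034) and at 4369 with JPI-289 (7037 UMIs, 4267 to 4472), for a log2 ratio of 2.22 (2.08 to 2.37). Camp, which encodes the antimicrobial cathelicidin, had 1 UMI in the 196 control cells and 126 UMIs in the 653 JPI-289 cells. These correspond to 2.30 and 78.2 CPM and a log2 ratio of 4.51, with a counting interval from 2.58 to 10.40. Ltf, which encodes the iron-binding protein lactoferrin, had 3 control and 90 JPI-289 UMIs, or 6.90 and 55.9 CPM, and its log2 ratio was 2.80 (1.42 to 5.32). None of the 9 genes with at least 20 UMIs was 2-fold lower. Among all 6248 genes with at least 20 UMIs in neutrophil-like cells, 11.5% were at least 2-fold higher and 10.5% at least 2-fold lower in the JPI-289 library, and the median log2 ratio was 0.10. Camp and Ltf reached 20 UMIs only through the JPI-289 library, where they were high, so this count of 3 is a description only.

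The difference in Ngp was a difference in the number of cells with the transcript as well as in its amount per cell. Ngp was detected in 47 of 196 control cells (24.0%) and 308 of 653 JPI-289 cells (47.2%). At the common depth of 1000 UMIs the shares were 22.6% (16.7 to 29.5) and 45.1% (41.0 to 49.2), and their intervals did not overlap. For comparison, Ngp was detected after thinning in 0 of 1345 control and 1 of 1137 JPI-289 proximal tubule-like cells, whose median depths were 2296 and 1837.5 UMIs and which lay mostly in different clusters, led by Pck1 and Slc4a4 in the control and by Srxn1 and Fgb in the JPI-289 library. Cells with at least 10 Ngp UMIs of 1000 made up 0.565% of the control (1 cell) and 10.2% of the JPI-289 neutrophil-like cells (59 cells). The highest cell held 58 Ngp UMIs in the control and 236 with JPI-289. Ngp was unevenly spread in both libraries, and the 10% of cells with the most held 82.8% of its UMIs in the control and 74.0% with JPI-289. Camp was detected after thinning in 0 of 177 control cells, which allows a share of cells with a UMI of up to 1.69%, and in 21 of 581 JPI-289 cells, 3.61% (2.25 to 5.47). Ltf was detected in 0 of 177 control cells, which also allows up to 1.69%, and in 11 of 581 JPI-289 cells, 1.89% (0.949 to 3.36). The control limit lies inside this interval, so the shares give no clear difference in detection of Ltf. A UMI of Ngp, Camp or Ltf was present in 22.6% of control and 45.6% of JPI-289 cells (41.5 to 49.8).

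**Figure D2:**
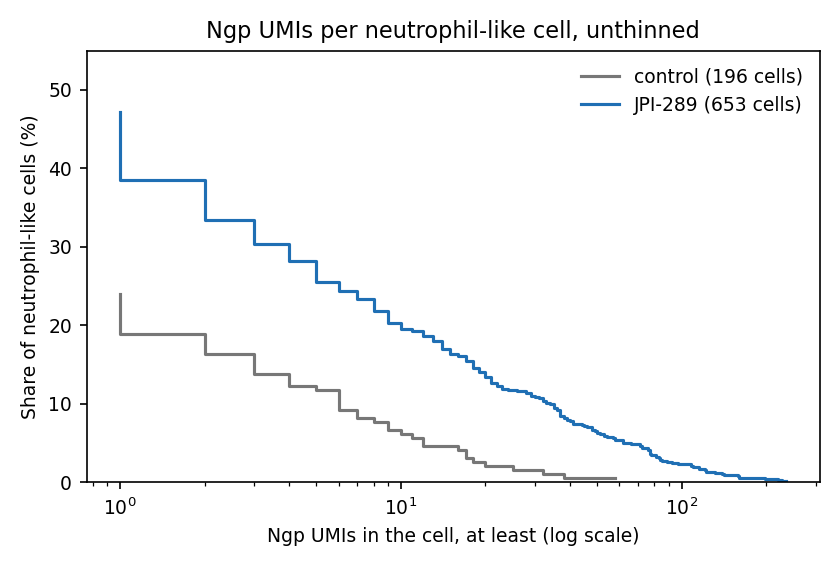
Share of neutrophil-like cells (vertical axis, percent) that held at least the number of Ngp UMIs on the horizontal axis (log scale, unthinned), for the control (grey) and the JPI-289 library (blue). The JPI-289 curve starts at 47.2% and reaches 236 UMIs, and the control curve starts at 24.0% and ends at 58 UMIs.

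Cells with at least 10 Ngp UMIs before thinning, called Ngp-rich below, had higher S100a8, S100a9, Retnlg and Mmp8 levels and lower Il1b and Cxcl2 levels than cells without Ngp in both libraries, whereas Mmp9 was lower in the control and higher in the JPI-289 library. These cells, selected by their Ngp UMIs, were also deeper, with medians of 3776 UMIs (13 control cells) and 4156 (133 JPI-289 cells), against 1856 and 1637 in cells without Ngp (149 and 345 cells). In the JPI-289 library, S100a9 was at 72642 CPM in the Ngp-rich cells and at 28202 in those without, and Retnlg was at 41613 and 16985. The corresponding control values were 96462 and 38129 for S100a9 and 73302 and 29633 for Retnlg. Cytokine and chemokine transcripts ran the other way. Il1b was at 2473 CPM in the Ngp-rich JPI-289 cells and 9202 in those without Ngp, and Cxcl2, a neutrophil chemoattractant, was at 9987 and 29182. The control cells gave 3568 and 9809 for Il1b and 12203 and 29039 for Cxcl2. Camp or Ltf was found in 41 of the 133 Ngp-rich JPI-289 cells (30.8%) and in 9 of the 345 without Ngp (2.61%), but in none of the 13 Ngp-rich control cells. Within cells without Ngp, S100a8 was at 25843 CPM in the control and 19158 with JPI-289, in the opposite order to the totals over the class. The same order held in cells with 1 to 9 Ngp UMIs (39511 and 34086) and in Ngp-rich cells (60740 and 57477). S100a9 was also lower with JPI-289 in each of these groups, at 55796 and 46548 CPM in cells with 1 to 9 Ngp UMIs.

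Camp, Ngp and Ltf lie within 1195 kb on mouse chromosome 9. In GRCm38, Camp is at chr9:109847379-109849617 on the minus strand, Ngp at chr9:110419747-110423012 and Ltf at chr9:111019271-111042767, both on the plus strand, and no annotated gene overlaps any of the 10 genes. Their promoter windows, 250 bases before to 50 after the RefSeq start, are shown because all 3 genes were more than 2-fold higher in the JPI-289 library. Mmp8 is added as a granule gene of the same chromosome that was lower. The sequences are from RefSeq (GRCm38.p6), which held windows for 8 of the 10 genes. Its starts can differ from the gene ends given above, and those of Ngp, Camp and Ltf lie inside the genes as given. Capitals mark matches on either strand to TTNNGCAA, the core word bound by C/EBP factors, of which C/EBP epsilon drives specific granule genes.
Ngp (chr9:110419558-110419857, plus strand): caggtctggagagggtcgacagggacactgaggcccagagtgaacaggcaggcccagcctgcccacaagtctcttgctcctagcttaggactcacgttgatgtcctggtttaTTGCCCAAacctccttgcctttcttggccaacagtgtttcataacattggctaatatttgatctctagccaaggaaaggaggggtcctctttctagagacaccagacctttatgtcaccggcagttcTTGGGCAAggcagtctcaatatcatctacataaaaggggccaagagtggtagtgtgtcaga
Camp (chr9:109849407-109849706, minus strand): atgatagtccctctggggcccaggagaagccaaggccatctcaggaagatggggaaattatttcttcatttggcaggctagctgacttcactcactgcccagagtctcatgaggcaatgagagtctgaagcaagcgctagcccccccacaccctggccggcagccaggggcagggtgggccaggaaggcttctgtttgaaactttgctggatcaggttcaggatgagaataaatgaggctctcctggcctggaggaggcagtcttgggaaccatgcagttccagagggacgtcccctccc
Ltf (chr9:111019042-111019341, plus strand): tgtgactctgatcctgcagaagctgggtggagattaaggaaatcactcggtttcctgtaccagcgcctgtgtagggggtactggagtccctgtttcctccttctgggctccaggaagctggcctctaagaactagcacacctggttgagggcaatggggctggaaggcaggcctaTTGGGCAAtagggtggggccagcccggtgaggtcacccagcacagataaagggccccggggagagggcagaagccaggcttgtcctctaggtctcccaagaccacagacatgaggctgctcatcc
Mmp8 (chr9:7558179-7558478, plus strand): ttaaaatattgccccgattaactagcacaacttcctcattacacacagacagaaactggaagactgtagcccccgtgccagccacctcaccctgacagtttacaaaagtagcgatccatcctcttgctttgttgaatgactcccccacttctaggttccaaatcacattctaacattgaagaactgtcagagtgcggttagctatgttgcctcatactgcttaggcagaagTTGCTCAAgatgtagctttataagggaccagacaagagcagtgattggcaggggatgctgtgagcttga
The Ngp window held the word at 138 and at 11 bases before the RefSeq start (TTGCCCAA and TTGGGCAA). The Ltf window held it at 75 bases (TTGGGCAA) and the Mmp8 window at 19 bases (TTGCTCAA). The Ngp match at 11 bases lies inside the gene as given above, and the Camp window covers less than 250 bases before its gene. The Camp, S100a8 and Elane windows held none, and S100a9 and Retnlg held 1 match each, at 236 and 246 bases before the start. Over all 32851 RefSeq promoter windows, 10.8% held the word. A match describes the letters and does not show a bound site.

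Mmp8 and Mmp9 differed less between the libraries. Mmp8, neutrophil collagenase, was at 910 CPM in control neutrophil-like cells (396 UMIs) and at 583 in JPI-289 cells (939 UMIs), a log2 ratio of -0.64 (-0.81 to -0.47). Mmp9, the gelatinase that names the gelatinase granules, was at 1202 CPM in the control (523 UMIs) and 1538 with JPI-289 (2478 UMIs). Its log2 ratio was 0.35 (0.22 to 0.49). Both stayed within 2-fold, Mmp8 lower and Mmp9 higher in the JPI-289 library. Detection ran in the same direction as the levels, but the intervals overlapped for both genes. Mmp8 was found after thinning in 37.9% of control cells (30.7 to 45.4) against 29.1% of JPI-289 cells (25.4 to 33.0). Mmp9 was found in 61.6% (54.0 to 68.8) and 72.3% (68.5 to 75.9). In the Ngp-rich JPI-289 cells Mmp8 was at 1083 CPM against 193 in cells without Ngp, and in the control at 1689 against 752.

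Azurophil granule genes were absent or sparse, and Cebpe was low but present in both libraries. Elane, the neutrophil elastase of azurophil granules, had no UMI in neutrophil-like cells of either library, 0 of 196 cells, which allows a share of cells with a UMI of up to 1.53% (3 counts of the total), and 0 of 653 cells, which allows up to 0.459%. Cebpe, which encodes the factor C/EBP epsilon, had 11 control and 42 JPI-289 UMIs, 25.3 and 26.1 CPM, and a log2 ratio of -0.0029 (-0.94 to 1.15). At these counts a 2-fold higher level of Cebpe with JPI-289 lies within the interval. The other azurophil genes were sparse as well. Prtn3, proteinase 3, had 1 control and 23 JPI-289 UMIs, 15 of them in 1 cell, Mpo had 0 and 3 UMIs, Ctsg had 0 and 5, and Ms4a3 and Bpi had none.

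**Figure D3:**
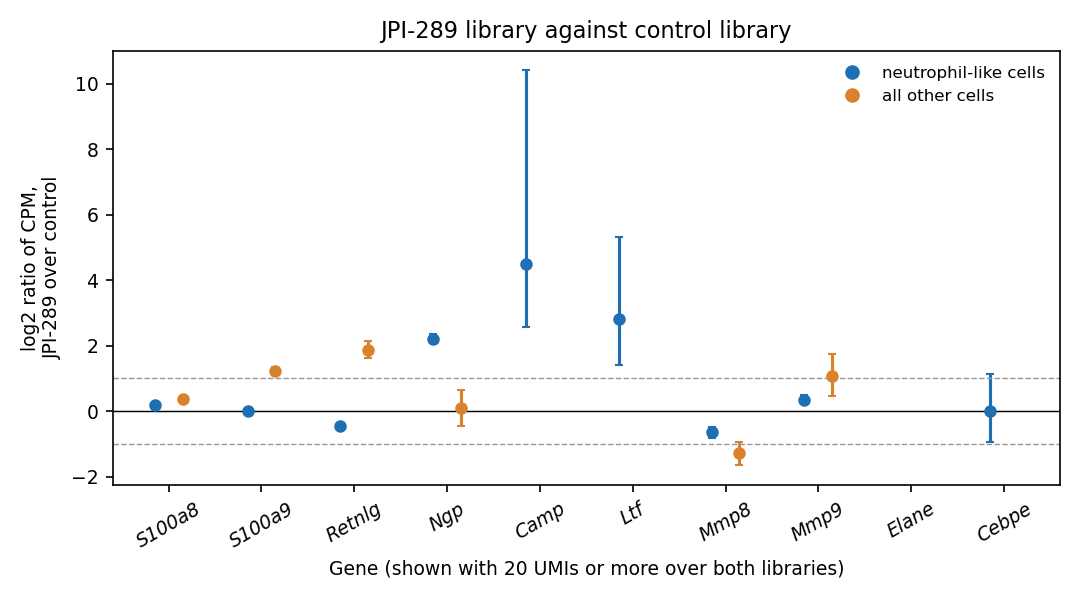
Log2 ratio of CPM, JPI-289 over control, in neutrophil-like cells (blue) and in all other cells (orange), for genes with at least 20 UMIs over both libraries. Bars are 95% counting intervals, dashed lines mark 2-fold, and Retnlg is the gene below 0 in neutrophil-like cells (-0.45) and above 0 in other cells (1.87).

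Other neutrophil genes were described from lists of related function. Of 9 specific granule genes other than the 3 above, 8 had at least 20 UMIs, 0 were 2-fold higher and 3 were 2-fold lower in the JPI-289 library, with a median log2 ratio of -0.42, against 11.5% higher and 10.5% lower among all genes. Chil3, a chitinase-like protein, was at 4538 CPM in the control and 1134 with JPI-289, Lyz2, lysozyme, at 795 and 212, and Olfm4, olfactomedin 4, at 46.0 and 23.0. Lcn2, lipocalin 2, was within 2-fold, at 6124 and 5347 CPM. Cd177, a surface protein stored in these granules, was at 354 and 412 CPM. Monocyte markers summed to 317 CPM in control and 247 in JPI-289 neutrophil-like cells, with 3 and 2 of 7 at 0, and proximal tubule markers to 715 and 251, with 0 and 1 of 10 at 0. Their part in these differences was not tested.

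Of the 7 genes listed for gelatinase granules and secretory vesicles, 0 were 2-fold higher and 1 was 2-fold lower, and the median was -0.11. That gene was Arg2, with a log2 ratio of -1.44, but arginase 2 is a mitochondrial enzyme and not a granule protein. Adam8, Itgam, Mmp25, Fpr1, Fpr2 and Slc11a1 stayed within 2-fold. Of 11 S100, stefin and WAP genes measured, 2 were 2-fold higher and 1 lower, with a median of 0.36, against 11.5% higher and 10.5% lower among all genes. The higher ones were S100a4, a calcium-binding protein, with 0 control and 33 JPI-289 UMIs, and Stfa3, a stefin, with 1 and 37 UMIs, and both reached 20 UMIs only through the JPI-289 library. The lower one was Stfa2l1, at 1212 and 588 CPM, and reads may be split among the near-identical stefin genes. Stfa2l1 is also among the markers that named neutrophil-like cells, so its ratio is a description only. The 5 measured transcription factor genes of granulopoiesis stayed within 2-fold, with a median of -0.34 and Cebpb at 6545 and 6484 CPM.

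Among genes of circulation and aging, some were lower in the JPI-289 library. Csf3r, the G-CSF receptor and 1 of the 14 markers of the class, was at 871 CPM in the control and 327 with JPI-289, for a log2 ratio of -1.42 (-1.61 to -1.22). Cd101, a marker of late maturation, was at 36.8 and 17.4 CPM, on 16 and 28 UMIs. Csf3r was lower in every part of the class, at 953 CPM in control and 388 in JPI-289 cells without Ngp, and at 443 and 218 in Ngp-rich cells. Of 12 activation genes, 0 were 2-fold higher and 3 lower, Ptgs2 (cyclooxygenase 2, -1.74), Il1rn (interleukin 1 receptor antagonist, -1.21) and Cxcl3 (a chemokine, -1.06), with a median of -0.51, against 11.5% and 10.5% of all genes. Tnf, tumor necrosis factor, was higher within 2-fold, at 708 and 1152 CPM. Of the 6 proliferation genes only Pcna had 20 UMIs, with 6 and 33. These were 13.8 and 20.5 CPM, a log2 ratio of 0.48 (-0.70 to 2.12), since the class held 434980 control and 1610731 JPI-289 UMIs in all. Mki67 had 0 and 15 UMIs, with a lower limit of its log2 ratio at -0.046. Birc5 and Mcm3 had 0 and 1 UMIs each, and Top2a and Ube2c had none.

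Those of the 10 genes with at least 20 UMIs in a library were at higher levels in neutrophil-like cells than in other cells. At least 8-fold higher levels in neutrophil-like cells were found for the 7 genes with 20 UMIs in the control and the 9 in the JPI-289 library, where 3.5% and 3.89% of all genes reached this. Camp, Ltf and Cebpe reached 20 UMIs in the JPI-289 library only through its neutrophil-like cells, where they were high, so these counts are a description. In the control Ltf had 3 UMIs in neutrophil-like and 5 in other cells, and the 12 Elane UMIs of the JPI-289 cells were all in other cells. Retnlg was 3877-fold higher in neutrophil-like than in other cells of the control and 771-fold higher in the JPI-289 library. Ngp was 271-fold and 1174-fold higher, S100a9 918-fold and 396-fold, and Mmp8 61.7-fold and 96.3-fold. For Retnlg, the level in neutrophil-like cells was lower and the level in other cells higher in the JPI-289 library. Of all S100a8 UMIs in cells, 88.5% were in neutrophil-like cells in the control and 96.2% with JPI-289.

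In the other cells, S100a8 was at 113 CPM in the control and 145 with JPI-289 (log2 ratio 0.36, 0.27 to 0.45), S100a9 at 52.2 and 123 (1.23, 1.12 to 1.35) and Retnlg at 9.89 and 36.3 (1.87, 1.62 to 2.14). S100a9, Retnlg and Mmp9 (1.08, on 32 and 68 UMIs) were at least 2-fold higher, against 4.72% of all 14382 genes, and Mmp8 was at least 2-fold lower (-1.29, on 240 and 98 UMIs), against 20.9%. The median over all genes was -0.21. Barcodes with under 100 UMIs, which hold free RNA, carried more of these transcripts in the JPI-289 library as well, with S100a9 at 399 CPM in the control and 1254 with JPI-289. After free RNA was subtracted at shares of 9.08% and 13.9%, estimated from haemoglobin, S100a9 and Retnlg were at 0 in the other JPI-289 cells, and Retnlg also in the other control cells. In each of these cases the subtraction took more UMIs than were counted. For JPI-289 it expected 2831 S100a9 and 1970 Retnlg UMIs, against 1996 and 591 counted, and for control Retnlg 426 against 161. The source of these UMIs in other cells was not tested. Ngp in the other control cells rested mostly on 1 cell of the endothelium-like class. It held 51 of the 56 control UMIs together with 127 S100a8 and 183 S100a9 UMIs. In the JPI-289 library, 60 Ngp UMIs were spread over 51 other cells, with at most 8 in a cell, and 28 of them were in 26 collecting duct-like cells.

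An unnamed cluster led by Lyz2, Thbs1 and Fn1 held most of the S100a8 UMIs outside neutrophil-like cells. It had 69 control and 142 JPI-289 cells and scored alike for monocyte and macrophage markers. Its leading genes held no macrophage marker but held Pf4, a platelet marker, so it was given no cell type. S100a8 was at 2454 CPM in its control cells (1594 UMIs) and 1771 in its JPI-289 cells (1517 UMIs). Before thinning it was detected in 66.7% and 57.0% of them, at median depths of 8660 and 5951 UMIs. After thinning the order was reversed, at 27.9% (17.7 to 40.1) in the control and 36.6% (28.4 to 45.3) with JPI-289. These intervals overlapped, so the shares give no clear difference in detection within the cluster. Each Retnlg UMI there came with 24.5 S100a8 UMIs in both libraries, against 0.840 and 1.30 in neutrophil-like cells, and the counting intervals did not overlap. These Retnlg UMIs were mostly in 1 cell of each library, which held 48 of 65 in the control and 51 of 62 with JPI-289, and without these cells the ratios were 92.1 (57.3 to 159) and 135 (75.4 to 272). S100a8 was uneven within the cluster, and 1 control cell held 454 of the 1594 UMIs. Mmp8 was at 342 CPM in its control cells (222 UMIs) and 96.9 in its JPI-289 cells (83 UMIs), a log2 ratio of -1.81 (-2.20 to -1.45). Without this cluster the log2 ratio of S100a8 in other cells was 1.83 and that of Mmp8 -0.23. The 12 Elane UMIs of the JPI-289 cells were all in this cluster, 11 in 1 cell and 1 in another, and both cells also held Prtn3 (12 and 7 UMIs) and Ly6c2, a monocyte gene (19 and 20 UMIs), but no Ngp, Camp, Ltf or Cebpe. No control cell held Elane.

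**Figure D4:**
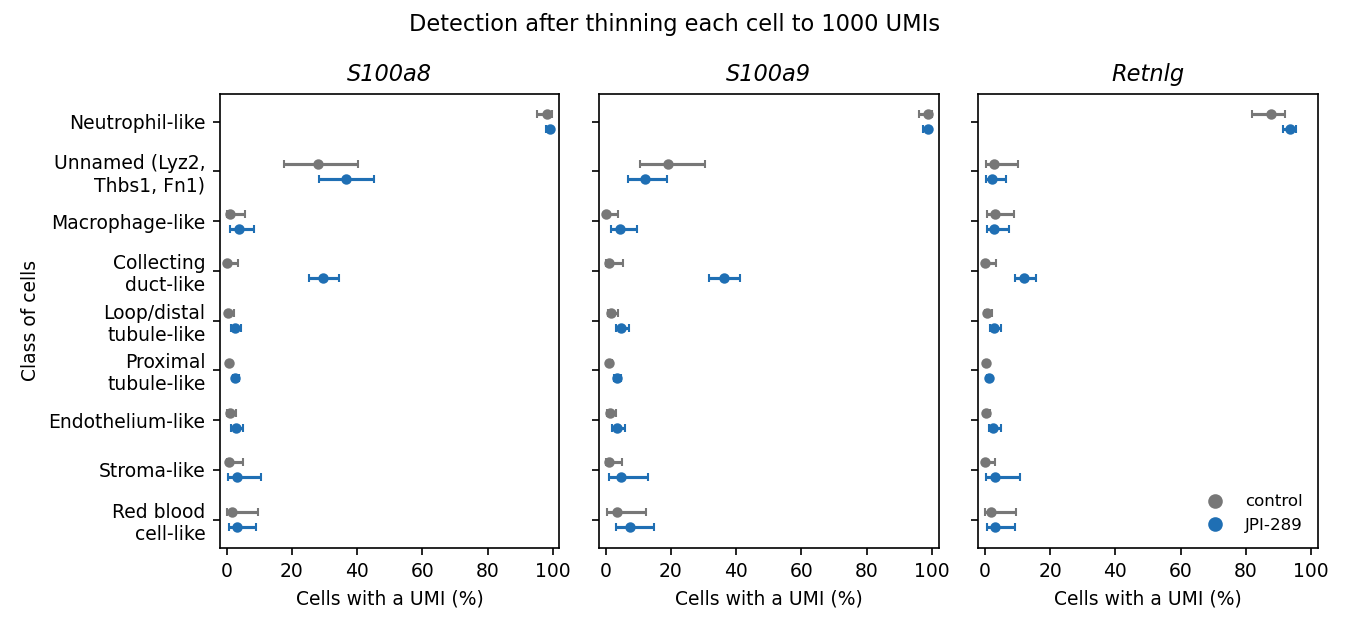
Share of cells with a UMI of S100a8, S100a9 and Retnlg after thinning each cell to 1000 UMIs, by class of cells, in the control (grey) and the JPI-289 library (blue), with exact 95% intervals. Collecting duct-like cells of the JPI-289 library stand at 29.7%, 36.3% and 12.2%, above the other tubule classes and the control.

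Among tubule cells, the collecting duct-like cells of the JPI-289 library carried S100a8 and S100a9 most often. S100a8 was detected in 164 of 445 cells, 36.9% (32.4 to 41.5), and S100a9 in 205, 46.1% (41.4 to 50.8), against 1 and 3 of 127 control cells. At 1000 UMIs per cell the JPI-289 shares were 29.7% and 36.3%, and proximal tubule-like cells of the same library had 2.73% and 3.43%. The median depths of these JPI-289 classes were 1561 and 1837.5 UMIs. The signal lay in the cluster led by Aqp2, the water channel of principal cells, with S100a9 in 202 of 382 cells (52.9%). The cluster led by Atp6v1g3, a proton pump subunit of intercalated cells, had S100a9 in 3 of 63 cells (4.76%). The signal of the Aqp2 cluster was low and broad, with at most 4 UMIs of either gene in a cell, and the 5 cells with the most held 5.22% of the UMIs. In JPI-289 proximal tubule-like cells the 5 highest cells held 48.0% of them.

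The ratios of S100a9 and S100a8 to Retnlg in this signal were higher than in free RNA, while the ratio of S100a9 to marker UMIs was close to that of free RNA. In the Aqp2 cluster of the JPI-289 library there were 4.53 S100a9 UMIs for each Retnlg UMI (3.53 to 5.88) and 3.18 S100a8 UMIs (2.45 to 4.17). Barcodes under 100 UMIs of the same library gave 1.44 (1.24 to 1.67) and 0.993 (0.843 to 1.17), and proximal tubule-like cells gave 1.42 and 1.03. Neutrophil-like cells of this library gave 1.73 and 1.30. Their smaller cluster (38 cells, median 679.5 UMIs) gave 3.09 (2.85 to 3.35) and 2.43 (2.24 to 2.64). Its S100a8 interval overlapped that of the Aqp2 cluster, and its S100a9 interval did not. Other neutrophil transcripts were also found in the Aqp2 cluster. At least 1 of the 14 neutrophil markers was found in 145 of its 382 cells (38.0%), against 3.63% of proximal tubule-like cells. The markers summed to 135 CPM, against 15.3 in proximal tubule-like and 16162 in neutrophil-like cells, with 2 of the 14 at 0. Ngp was found in 26 cells, and Il1b and Cxcl2 were at 173 and 128 CPM. In the control, 13 of the 78 cells of this cluster (16.7%) also held a marker, while 1 of the 78 held S100a8 or S100a9. Among all JPI-289 collecting duct-like cells, no marker was found in 53.6% of those with S100a8 or S100a9 and in 82.9% of those without. For each marker UMI of the JPI-289 library there were 1.91 S100a9 UMIs in the Aqp2 cluster, 3.01 in neutrophil-like cells and 2.09 in free RNA. The JPI-289 cells of the cluster with S100a8 or S100a9 were shallower than those without, with medians of 1467.5 and 4486.5 UMIs. Its 78 control cells were deeper still, at 9235.5, with 12 of the 14 markers at 0. The part of neutrophil RNA and of depth in the S100a8 and S100a9 of these cells was not tested.

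**Figure D5:**
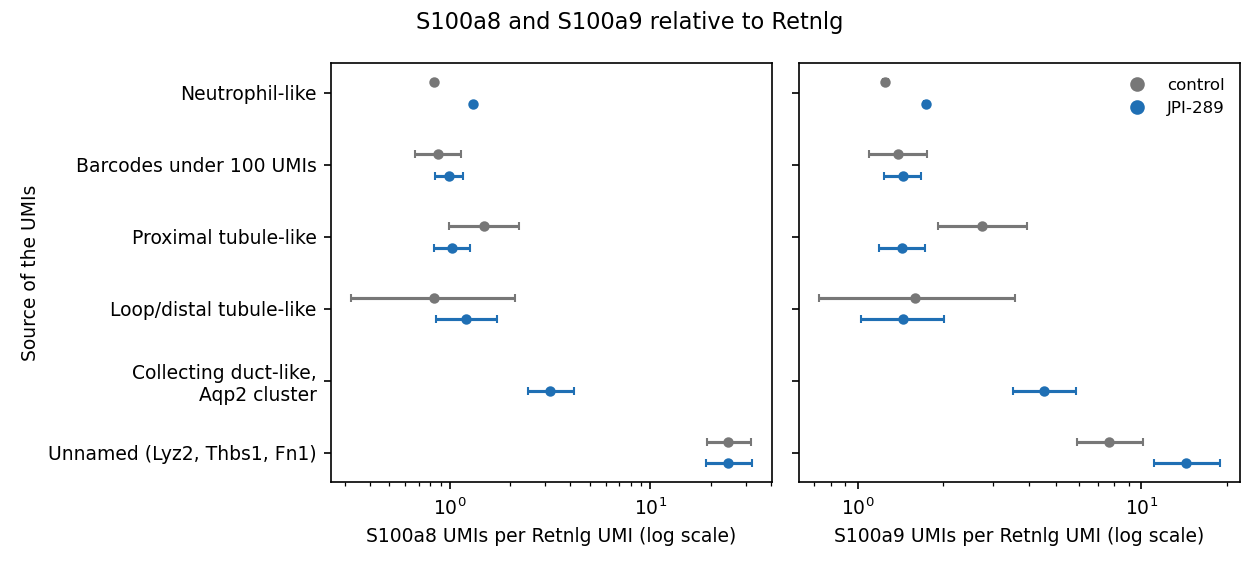
UMIs of S100a8 (left) and S100a9 (right) for each Retnlg UMI, on a log scale, by source, in the control (grey) and the JPI-289 library (blue), with exact 95% intervals, shown where at least 5 Retnlg UMIs were counted. The Aqp2 cluster (3.18 and 4.53) and the unnamed cluster (24.5 for S100a8 in both libraries, with most of its Retnlg UMIs in 1 cell of each) lie to the right of neutrophil-like cells and free RNA.

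The genes whose levels ran most like those of the 10 genes were found over 26 sums of class and library, as Pearson's r of log2(CPM + 1) among 11689 genes. These points share 2 libraries and are dominated by the gap between neutrophil-like and other cells. S100a8 was closest to Wfdc21 (r = 0.95) and S100a9 to S100a8 (0.93), as was Retnlg (0.93). Mmp9 ran closest to the chemokine receptor gene Cxcr2 (0.97) and Mmp8 to Ifitm6 (0.99), followed by Mcemp1 and Trem3. Ngp was closest to Hdc, histidine decarboxylase (0.86), Ltf to Gm14455 (0.90) and Camp to Amer2 (0.89), on few UMIs. Cxcr2 and Hdc are among the markers that named neutrophil-like cells, so their r values are a description only.

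Over all barcodes, with no cell calling, the levels of all 10 genes were higher with JPI-289, in the library that also held the larger share of neutrophil-like cells. S100a8 was at 465 CPM in the control and 1865 with JPI-289, and Ngp at 12.8 and 210. In such totals more neutrophils and more mRNA per neutrophil cannot be told apart. The log2 ratio over all barcodes was 4.04 for Ngp and 0.81 for Mmp8.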

How the data were processed

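UMI counts per gene and barcode were measured in 2 kidney libraries made with the Chromium 5′ v2 kit. The authors deposited raw counts for every barcode, with no cell calling, made with Cell Ranger 5.0.1 on mm10 per the submitters' processing notes. The header of the deposited counts names another Cell Ranger release, and the notes were followed. Reads from near-identical genes may have been dropped or split in the counting. The totals were 38328760 control and 35548396 JPI-289 UMIs. The 10 genes, the lists of related genes and the markers were chosen with earlier results of these data known.

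Cells were called by total UMIs and then, from 500 UMIs, by 10000 simulations against the profile of barcodes ranked 45000 to 90000 (false discovery rate 0.01). Cells with over 50% mitochondrial UMIs were left out (545 control, 395 JPI-289). Leiden clustering (scanpy 1.11.5, 2000 variable genes, 30 components, 20 neighbours, resolution 1) was run without the 10 genes and the listed granule genes, and clusters were named from marker lists. Scrublet marked 2 of 8795 cells and so had not worked, and no doublets were removed. UMIs were summed per class and library, and log2 ratios of CPM were taken with 0.5 UMI added, with exact binomial or Poisson intervals. Genes with under 20 UMIs over both libraries were not counted. Thinning drew 1000 UMIs from each cell and left out 19 control and 72 JPI-289 neutrophil-like cells. Intervals cover counting error only, since each condition had 1 library. The ratio and the cell calling steps were tested on simulated data. The counts of the list of circulation and aging genes are not reported here. Genes named beside the 10 came from the lists, and the groups by Ngp UMIs, the 2 collecting duct-like clusters and the unnamed cluster were singled out after their values were seen. Promoter windows were read from RefSeq and gene positions from GENCODE on GRCm38, the build of mm10. Alternatives to the cell filters, clustering, doublets, scaling, weighting, free RNA, count minimum, added count and thinning were computed.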

Additional observations from a re-analysis of the deposited data

Results flagged for a closer look

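The log2 ratio of Retnlg between the libraries had opposite signs in neutrophil-like and other cells. On the log2 scale the JPI-289 level over the control level was -0.45 in neutrophil-like cells and 1.87 in other cells, and neither counting interval reached 0. With 1 library per condition the difference between these ratios was not tested. Retnlg in barcodes under 100 UMIs was at 288 CPM in the control library and 873 CPM with JPI-289. More Retnlg UMIs were expected from such free RNA in the other cells (426 control, 1970 JPI-289) than were counted (161 and 591), so subtraction left 0 in both and the opposite sign could not be seen after it.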

How the results depend on the processing

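No paired analysis was possible because each condition had 1 library. The log2 ratios of Ngp (1.92 to 2.26), Camp (3.45 to 4.59), Ltf (2.07 to 3.08), Retnlg (-0.75 to -0.35), Mmp8 (-0.80 to -0.59), Mmp9 (0.20 to 0.62) and S100a8 (0.014 to 0.22) in neutrophil-like cells kept their sign under all 16 alternatives, while that of S100a9 (-0.20 to 0.098) and Cebpe (-0.31 to 0.91) did not. Cell calling by total UMIs only left 32 control and 210 JPI-289 neutrophil-like cells. The share with Ngp, Camp or Ltf was then 37.5% and 70.0%, and it was 14.8% and 33.7% when thinned to 500 UMIs and 41.4% in the JPI-289 library with neutrophil-like cells set cell by cell. Detection of S100a8 and S100a9 in neutrophil-like cells was 100% and 100% in the control and 100% and 99.5% in the JPI-289 library under calling by total UMIs only, 94.2% and 94.8%, and 95.4% and 93.6%, under the per-cell rule, and 94.9% and 93.9%, and 96.3% and 96.3%, when thinned to 500 UMIs. In other cells of the JPI-289 library it was 4.31% and 3.07% under calling by total UMIs only, 4.99% and 5.26% when thinned to 500 UMIs and 11.02% and 12.2% unthinned. In the control it was 3.40% and 3.24% unthinned, and S100a8 was at 1.28% under the per-cell rule. Subtraction of free RNA turned S100a9 in other cells to -8.94, because more S100a9 UMIs were expected from free RNA (2831) than these JPI-289 cells held (1996). It moved the median of the genes in other cells from 0.72 to -2.20 and that of neutrophil-like over other cells in the JPI-289 library from 8.15 to 11.18. It left no Retnlg UMI in other cells of either library, and the ratio of 1.87 came to 0.079 through the counts added. The per-cell rule moved Ngp in other cells from 0.10 to 5.42. In alternatives chosen after the data were seen, leaving out the unnamed cluster turned Cebpe in other cells from -1.92 (9 and 2 UMIs) to 1.61. Leaving out the shallow neutrophil-like cluster (1 control and 38 JPI-289 cells) or keeping the granule genes in the clustering turned no ratio of the genes in neutrophil-like cells. With 1 mouse per condition, differences between animals and between treatments cannot be told apart, and the shallow depth limits Camp, Ltf, Elane and Cebpe.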
